A study of Mus musculus with 15 samples.

Results

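Loci of spliced transcripts outside annotated genes were collected from 15 mouse libraries of RNA sequencing (RNA-seq). A transcript entered when it had 2 or more exons and when no base of it, on either strand, fell within the exons or body of any of the 55536 genes of the GENCODE M21 annotation of the mm10 genome. Of 509365 spliced transcripts listed over the 15 libraries, 5951 (1.17%) met this rule. Overlapping ones were merged across libraries into 1199 loci, and the 543 loci seen in 2 or more libraries are described here, numbered U001 to U543 in genome order. The other 656 loci were seen in 1 library each. A locus is called seen in a library when that library lists a spliced transcript of it.

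The study compared healthy brain with tumors of GL261, a mouse glioma line, in C57BL/6 mice. The 5 groups held 3 libraries each and were healthy brain, untreated tumor, and tumor from mice given B20.4.1.1, an antibody against VEGF-A, at 50, 100 or 200 µg per dose. Dosing began on day 10 after tumor implantation and was repeated every 3 days until the endpoint. Tumors were taken after perfusion and flash frozen, so each library holds the RNA of tumor cells and of host cells together, and a change in the number of cells of a type cannot be told apart from a change of RNA per cell. Groups follow the sample titles. The labels also carry an agent tag, which named the next higher dose for replicate 3 of the untreated, 50 µg and 100 µg groups and was blank for replicate 3 at 200 µg.

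The tissue labels were checked against marker genes. Neuron markers summed to 891 to 1221 FPKM (fragments scaled to transcript length and to the library's total) in brain. Their highest sum in an untreated tumor was 8.82 FPKM and in a dosed tumor 6.46 FPKM. Genes of dividing cells summed to at most 0.824 FPKM in brain and to at least 62.6 FPKM in each tumor group. Choroid plexus markers varied widely in brain, from 16.2 to 1270.3 FPKM. Relative depth, taken as the median read coverage per FPKM over long transcripts, was 7.78, 6.10 and 22.1 in the brain libraries and 6.94 to 13.2 in the tumor libraries. Brain replicate 3 thus stood apart as the deepest library. Genes listed in several separate pieces made up 9.91% in replicate 3 at 100 µg and 11.1 to 12.1% in the 3 libraries at 200 µg, against 19.4 to 34.8% in the other 8 tumor libraries. These 4 tumor libraries stood apart from the rest, and the split runs almost along the dose.

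Splicing removes introns from a primary transcript and joins the exons, and most known spliced transcripts come from protein-coding genes or from genes of long noncoding RNAs (lncRNAs). LncRNAs are commonly short, have few exons, are expressed at low levels and are restricted to some tissues or cell states, so annotations built on other tissues can lack them. A spliced transcript between annotated genes can also be an unannotated start or end of a neighbor, a processed piece of a repeat, or an error of alignment and assembly, and the deposited transcript lists do not tell these apart.

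Loci were compared with RefSeq, a second annotation of the same genome build (GRCm38.p6), which took no part in choosing them. Whether RefSeq or another annotation guided the assembly of the transcripts is unknown. The body of a RefSeq gene overlapped 207 of the 543 loci (38.1%), and 336 loci lay over none. An lncRNA gene was among the overlapping ones at 164 loci and a protein-coding gene at 44. At 35 loci the RefSeq gene had the same symbol as the nearest GENCODE gene, so the 2 annotations place the ends of that gene differently. RefSeq promoter windows, taken from 250 bases before to 50 bases after a gene's start, reached into 87 loci with 118 windows.

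The promoter windows below are a selection of those of RefSeq genes that start at or near loci described in the results, printed 5′ to 3′ on the strand of the gene from the RefSeq sequences of GRCm38.p6. They are shown to place annotated starts against loci that were chosen without RefSeq. Since an annotation may have guided the assembly, a start close to an edge is not independent evidence for that edge. As a selection, these windows also do not show how often starts and edges lie close together. The gene of the first starts 103 bases from the edge of U319, that of the second 68 bases from the edge of U063 and that of the third 6 bases from the edge of U014. The windows at U161 belong to AB010352 and Gm35089, genes that run away from each other and start 9 and 100 bases from the edge of U161, and the last belongs to a gene that starts 2057 bases inside the edge of U160. At U014 the windows of Gm35192, which starts 70 bases beyond the edge, of Gm35141 and of another start of Gm41917 are not printed. Capitals mark matches, on either strand, to 5 short motifs of promoters. The TATA box was searched as TATAAA and the CCAAT box by the letters of its name. The GC box was searched as GGGCGG. The AP-1 site, bound by Fos and Jun proteins, was searched as TGACTCA. The E box, bound by proteins such as Myc, was searched as CACGTG, and matches to different motifs did not overlap in these windows.
Gm42081 at U319, chr11:61397754-61398053, minus strand: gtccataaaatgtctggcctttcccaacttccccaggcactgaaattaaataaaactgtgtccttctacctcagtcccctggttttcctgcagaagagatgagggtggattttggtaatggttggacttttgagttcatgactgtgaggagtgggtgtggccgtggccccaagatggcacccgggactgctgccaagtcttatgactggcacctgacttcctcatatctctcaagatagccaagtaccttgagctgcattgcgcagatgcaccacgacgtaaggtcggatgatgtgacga
Gm40003 at U063, chr2:170673789-170674088, minus strand: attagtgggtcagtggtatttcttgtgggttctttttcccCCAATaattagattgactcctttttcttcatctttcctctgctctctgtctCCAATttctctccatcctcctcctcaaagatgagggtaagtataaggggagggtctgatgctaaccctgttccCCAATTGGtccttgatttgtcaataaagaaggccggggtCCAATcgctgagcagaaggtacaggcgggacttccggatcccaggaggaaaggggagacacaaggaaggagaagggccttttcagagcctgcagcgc
Gm41917 at U014, chr1:90582738-90583037, minus strand: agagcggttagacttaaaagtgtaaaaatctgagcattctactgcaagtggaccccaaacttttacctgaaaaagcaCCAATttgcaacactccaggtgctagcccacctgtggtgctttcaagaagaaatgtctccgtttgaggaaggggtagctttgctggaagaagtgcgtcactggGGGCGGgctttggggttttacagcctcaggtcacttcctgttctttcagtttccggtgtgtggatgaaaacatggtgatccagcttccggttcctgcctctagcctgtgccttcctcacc
AB010352 at U161, chr5:109866461-109866760, plus strand: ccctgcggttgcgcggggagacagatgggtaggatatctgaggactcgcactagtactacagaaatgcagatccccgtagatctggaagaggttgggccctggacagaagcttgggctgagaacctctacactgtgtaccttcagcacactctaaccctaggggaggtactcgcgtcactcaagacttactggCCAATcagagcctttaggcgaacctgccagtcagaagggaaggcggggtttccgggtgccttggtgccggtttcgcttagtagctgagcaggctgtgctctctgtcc
Gm35089 at U161, chr5:109866571-109866870, minus strand: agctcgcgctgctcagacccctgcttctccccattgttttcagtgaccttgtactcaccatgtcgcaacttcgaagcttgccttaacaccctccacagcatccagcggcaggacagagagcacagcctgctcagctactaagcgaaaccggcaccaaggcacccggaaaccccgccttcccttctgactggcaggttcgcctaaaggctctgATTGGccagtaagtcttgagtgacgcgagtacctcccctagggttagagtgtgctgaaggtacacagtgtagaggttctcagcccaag
Gm42142 at U160, chr5:105509048-105509347, minus strand: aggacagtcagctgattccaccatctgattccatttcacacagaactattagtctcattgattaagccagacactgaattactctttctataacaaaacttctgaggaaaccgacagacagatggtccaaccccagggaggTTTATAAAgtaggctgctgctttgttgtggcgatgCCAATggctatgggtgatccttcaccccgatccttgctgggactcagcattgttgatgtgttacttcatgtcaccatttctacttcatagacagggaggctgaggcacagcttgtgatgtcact

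None of the 5 motifs occurred in the window at U319, while the window at U063 held the CCAAT box 5 times, 2 of them overlapping on opposite strands. The window of Gm41917 held a CCAAT box and a GC box once each, and both windows at U161 held a CCAAT box once, which is the same match read from either strand where they overlap. The window at U160 held the TATA box letters 2 times in overlapping positions and a CCAAT box once. Over all 118 windows that reach into a locus, the CCAAT box occurred in 37.3%, the GC box in 28.0%, the TATA box in 13.6%, the AP-1 site in 6.78% and the E box in 7.63%. Over all 32851 RefSeq windows of the same length, the shares were 37.4, 35.7, 13.6, 5.20 and 7.15% in the same order. A match is a description of the letters only.

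The loci were short in exons. The largest transcript had 2 exons at 282 loci (51.9%), 3 exons at 146, 4 exons at 69, 5 exons at 26, 6 exons at 13, 7 exons at 6 and 8 exons at 1 locus. The merged exons of a locus covered a median of 2709 bases, with quartiles of 1619.5 and 4627 bases, and the span from first to last base had a median of 6830 bases. Introns numbered 1799, with a median length of 1845 bases, and 910 of them (50.6%) were listed with the same 2 ends in 2 or more libraries. At 481 of the 543 loci (88.6%) at least 1 intron recurred in this way. The files list many of these introns on both strands at once, in 2155 of 4954 pairs of an intron and a library (43.5%), so no strand is given for a locus.

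**Figure D1:**
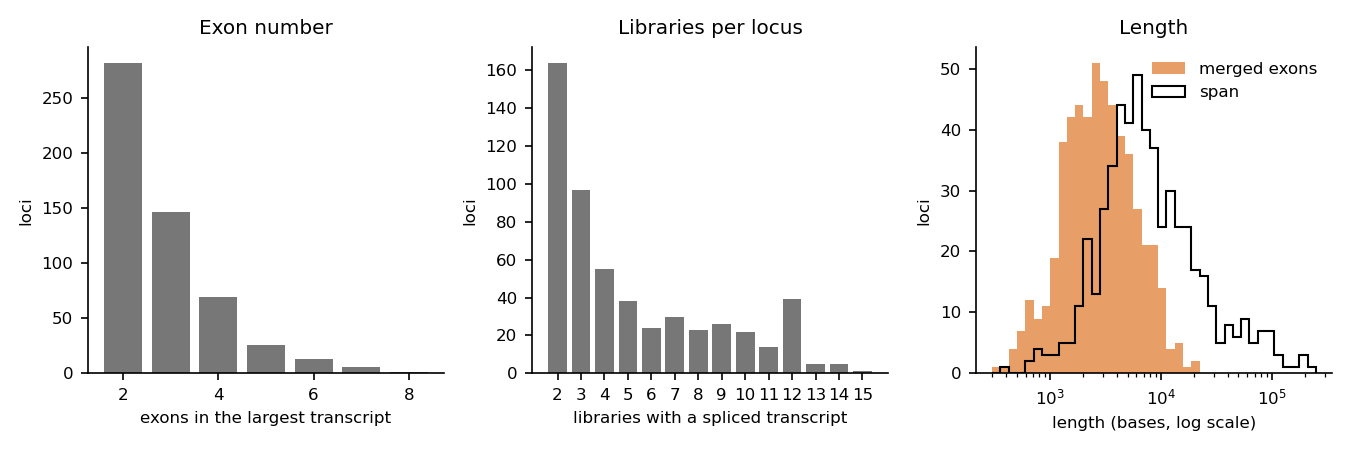
Number of exons in the largest transcript of each of the 543 loci (left), number of the 15 libraries in which each locus was seen (middle), and lengths of the merged exons (filled) and of the span (line) on a log axis in bases (right). Loci with a largest transcript of 2 exons number 282, and 164 loci were seen in 2 libraries.

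Compared with the spliced transcripts on annotated genes in the same library, those outside genes were lower in abundance and shorter in all 15 libraries. Their median FPKM per library ran from 0.345 to 2.80, against 2.12 to 3.76 for spliced transcripts on genes. Their median length ran from 596 to 1973 bases, against 1498 to 3065 bases. Transcripts with 2 exons made up 64.7 to 80.0% of them, against 6.67 to 14.4% on genes, and the share was the higher one in all 15 libraries. These are descriptions with no test.

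Most loci lay near a gene. The nearest annotated gene was a median of 7686 bases away, 112 loci were closer than 1 kb, 218 were closer than 5000 bases, and 516 (95.03%) were closer than 100000 bases. The nearest gene was protein-coding at 234 loci, a processed pseudogene at 104 and a long intergenic noncoding RNA gene at 80. The 218 loci within 5000 bases and the 325 farther away differed little in structure, with a median of 2692 and 2725 exonic bases. A transcript of 3 or more exons was present at 45.0% of the nearer and 50.2% of the farther loci. A RefSeq gene overlapped 49.1% of the nearer and 30.8% of the farther loci. Loci over a RefSeq gene had 3 or more exons more often than the others, at 58.5% against 41.7%, and were seen in a brain library at 35.7% against 9.23%, with near-equal median FPKM of 0.574 and 0.577.

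The locus with the most exons was U014 (chr1:90533674-90582793), with 8 exons in 1 transcript over a span of 49120 bases. It overlaps the RefSeq lncRNA genes Gm35141 and Gm41917, and its most shared intron, of 12306 bases, was listed in 8 libraries and the exon beside it reaches into the printed window of Gm41917. U014 was listed at 0 in all 3 brain libraries, at 0.296, 0.742 and 0.728 FPKM in untreated tumor, at 0.472, 1.29 and 2.74 at 50 µg, at 0.975, 1.46 and 0.885 at 100 µg, and at 0.725, 0.992 and 0.589 at 200 µg. The groups at 50 and 200 µg overlapped untreated tumor, and the group at 100 µg lay wholly above it. The next 6 loci tied at 7 exons, and the longer exonic lengths among them were those of U066 (chr3:16784017-16801703, 6872 bases) and U339 (chr12:17513650-17532428, 6869 bases), both over no RefSeq gene. The longest merged exonic length was 21839 bases at U284 (chr10:79038689-79063495), followed by 19239 bases at U334 (chr12:6807151-6896089). U284 lay 879 bases from 2610008E11Rik and ranged from 0.415 to 3.73 FPKM over the 12 tumor libraries, with brain listed at 0, 0 and 0.0715 FPKM.

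Of the 543 loci, fewer were seen in each brain library than in each tumor library, a description that the choice of loci partly fixes, since a locus had to be seen in 2 of 15 libraries and 12 of those are tumors. Brain libraries showed 53, 37 and 83 of the 543 loci, and untreated tumors showed 158, 195 and 203. Tumors given 50 µg showed 210, 206 and 198 loci, those given 100 µg 210, 240 and 227, and those given 200 µg 267, 297 and 209. The tumor libraries averaged 218 loci and the brain libraries 57.7, a difference of 160.7 loci, which is given with no test. Without brain replicate 1, 2 or 3 the difference was 158, 150.3 or 173 loci.

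Without the demand for 2 libraries the difference was smaller. Over all 1199 loci, brain replicate 3 alone showed 304, against 105 and 63 in the other brain libraries and 178 to 347 in the tumor libraries. Brain replicate 3 supplied 221 of the 656 loci that were seen once (33.7%), and it was also the deepest library. Counted in this way, tumor and brain libraries overlapped, and the tumor libraries exceeded brain by a mean of 90.8 loci, which did not pass (two-sided exact permutation test over 12 and 3 libraries, p = 0.0374, adjusted p = 0.2 over 6 comparisons). A count with the same demand on each group is the number of loci seen in at least 2 of its 3 libraries, which was 52 in brain, 163 in untreated tumor, 185 at 50 µg, 202 at 100 µg and 260 at 200 µg. Loci seen in all 3 libraries of a group numbered 16, 85, 87, 95 and 130 in the same order.

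By place, 438 of the 543 loci (80.7%) were seen in tumor and in no brain library, and 105 were seen in a brain library. Of the 438, 60 still had a value above 0 in a brain library, from unspliced transcripts on their exons. Untreated and dosed tumors shared 260 loci that were in no brain library, while 171 were seen in dosed tumors alone and 7 in untreated tumors alone. Dosed tumors have 9 libraries and untreated tumors 3, so these last counts are not comparable. In all 12 tumor libraries and no brain library, 37 loci were seen. These 37 had a median mean level of 2.65 FPKM and a median exonic length of 4515 bases, and 29 of them had a transcript of 3 or more exons. The 33 loci seen in brain alone, 7 of them in all 3 brain libraries, had a RefSeq gene at 24 loci (72.7%).

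**Figure D2:**
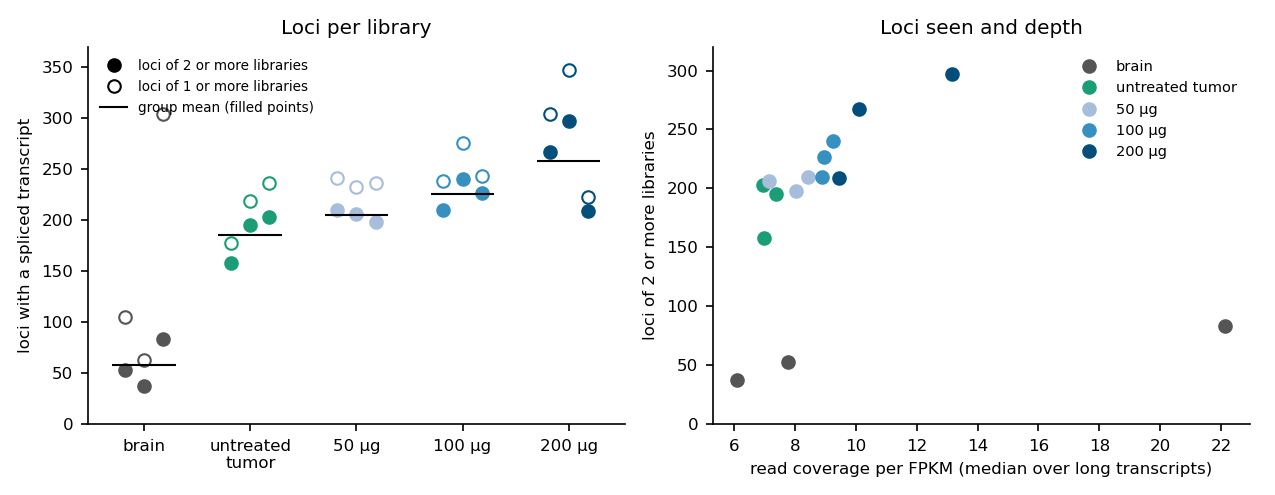
Left, loci seen in each library by group, for the 543 loci of 2 or more libraries (filled points, with the group mean as a bar) and for all 1199 loci (open points). Right, loci seen out of the 543 against read coverage per FPKM, where the 12 tumor libraries rise together from 158 to 297 loci and brain replicate 3, at a coverage of 22.1, shows 83.

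Among tumors, the mean number of loci seen was 185 ± 24.0 in the untreated group, 205 ± 6.11 at 50 µg, 226 ± 15.04 at 100 µg and 258 ± 44.7 at 200 µg (SD, n = 3 each). The groups at 100 and 200 µg did not overlap the untreated group, and the group at 50 µg did. The choice of loci partly favors dosed tumors too, which have 9 libraries against 3, so these numbers are given with no test. With 3 against 3 libraries no single dose could pass in any case, since the exact permutation test gives at least 0.1. With 1 library needed, all doses together against untreated tumor gave p = 0.0909 (exact permutation, adjusted p = 0.2). Counted so, 200 µg overlapped untreated tumor and 100 µg did not. The number of loci seen rose with read coverage per FPKM over the 12 tumor libraries (Pearson r = 0.90, permutation p = 7.0e-05, adjusted over 2 relations p = 1.4e-04, and Spearman rho = 0.85, permutation p = 6.8e-04, adjusted p = 0.00136). Without the 2 libraries farthest from the median coverage r was 0.83 over 10 libraries. With the share of genes in pieces r was −0.54 (permutation p = 0.0752) and rho −0.52 (p = 0.0865), and −0.64 without 2 libraries. All 3 libraries at 200 µg had a higher coverage than the other 9 tumor libraries, so depth and dose move together here, and their parts in the number of loci were not tested.

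Abundance summed over the 543 loci was higher in every tumor library than in every brain library. The same choice of loci partly fixes this, since 438 of them were seen in no brain library, so the sums are given with no test. Brain libraries summed to 211, 147 and 124 FPKM, and untreated tumors to 2306, 2491 and 1871 FPKM. The sums were 2206, 2724 and 3885 FPKM at 50 µg, 2055, 2340 and 2431 at 100 µg, with 2382, 2651 and 2652 at 200 µg. The means were 2499 and 160.7 FPKM, a difference of 2339 FPKM. The size of the difference depends on how values are summed. It was 1922 FPKM without the highest locus of each library, 7119 FPKM when loci were merged by overlap of exons and 8785 FPKM as a plain sum of spliced transcripts. Leaving out any 1 brain library left a difference of 2320 to 2364 FPKM. The dose groups overlapped the untreated group, which is also given with no test, since the choice of loci partly favors dosed tumors. The median FPKM of the loci seen in a library was 1.53 ± 0.713 in brain and 1.85 ± 0.0568 in untreated tumor (SD, n = 3 each), and the groups overlapped (exact permutation, p = 0.9). It was 1.33 ± 0.249 at 100 µg and 1.16 ± 0.0768 at 200 µg, both wholly below untreated tumor (exact permutation, p = 0.1 each, the smallest possible, adjusted p = 0.3).

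For single loci, untreated tumor and brain were compared with limma on log2(FPKM + 1) in 1 table with all annotated genes. A feature was tested when its mean over the 6 libraries was at least 0.5 FPKM, which 243 of the 543 loci passed and 300 did not. Of the 243, 134 were higher and 21 lower in untreated tumor at an adjusted p under 0.05. Among all 18127 features tested, 59.2% were called, 31.5% as higher and 27.7% as lower. Of the 243 loci tested, called or not, 143 (58.8%) lay wholly higher and 21 (8.64%) wholly lower in tumor. Among all features tested 36% lay wholly higher and 31.2% wholly lower. All 134 and all 21 called loci were among those that did not overlap. At 99 of the 134 higher loci all 3 brain libraries were listed at 0, and at 13 of the 21 lower loci all 3 untreated tumors were. These loci passed the filter through 1 group alone, tumor or brain, so a difference was fixed by the filter and their p-values do not support one. The same holds for loci whose values in 1 group were above 0 but averaged under the filter. Most of the 543 loci also entered through tumor libraries, so the excess of higher over lower loci is in part fixed by how they were chosen.

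**Figure D3:**
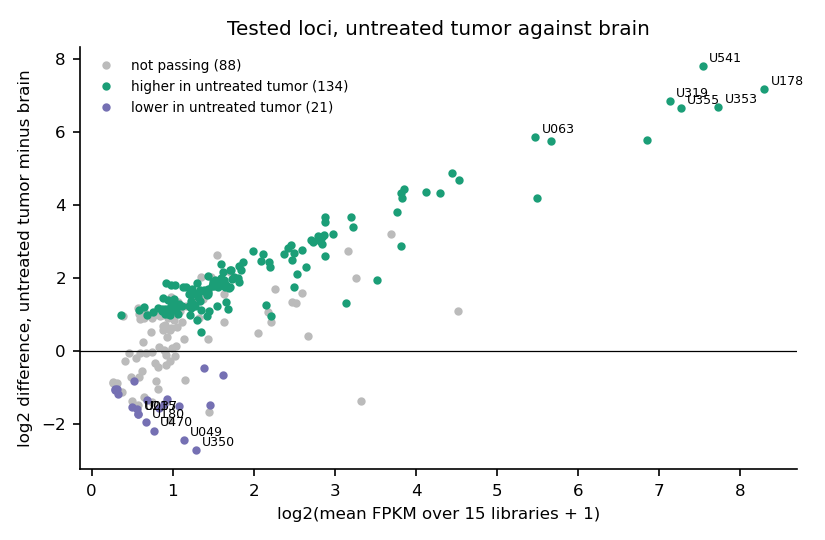
Log2 difference between untreated tumor and brain (vertical) against log2 of the mean FPKM plus 1 over the 15 libraries (horizontal) for the 243 loci tested. Loci called higher in untreated tumor (134) and lower (21) are colored, 88 did not pass, and the 12 loci with the largest differences are labeled.

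The 6 most abundant loci over the 15 libraries were all near 0 in brain and high in every tumor. Ranking by the mean over 15 libraries favors this, since 12 of them are tumors. U178 (chr6:68242385-68252271) had the highest mean, 313 FPKM, and lies in the immunoglobulin kappa locus, 4118 bases from the variable segment Igkv14-111, which was listed at 0 in all groups. Its levels were 1.02, 0.943 and 1.17 FPKM in brain, 251, 476 and 209 in untreated tumor, 352, 300.2 and 423 at 50 µg, 355, 408 and 447 at 100 µg, with 510, 434 and 534 at 200 µg. All tumor libraries lay far above brain, and the dose groups overlapped untreated tumor. The log2 difference between untreated tumor and brain was 7.17 ± 0.32 (SE; limma, adjusted p = 1.9e-05). Its intron of 5074 bases was listed with the same ends in 12 libraries, 11 of them tumors.

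U353 (chr12:92882541-92892512), over the RefSeq gene Gm40892, lay 105253 bases from the nearest GENCODE gene. It stood at 0.358, 0 and 0.664 FPKM in brain, 104, 232 and 97.6 in untreated tumor, 198, 220.1 and 415 at 50 µg, 194, 312 and 244 at 100 µg, with 295, 527 and 326 at 200 µg. Brain and tumor did not overlap, with a log2 difference of 6.68 ± 0.39 (limma, adjusted p = 3.7e-05). U353 averaged under the filter in brain and passed it through tumor alone, so this p-value does not support a difference. U353 was seen as a spliced transcript in 5 tumor libraries, and in the other 7 its level came from unspliced transcripts on the same exons. At 200 µg all 3 libraries lay above the untreated ones, by 1.47 ± 0.40 on the log2 scale, which did not pass (limma, adjusted p = 0.0741).

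U541 (chrY:90717482-90735473) lay 17584 bases from the pseudogene Mid1-ps1. Its levels were listed at 0, 0 and 0.209 FPKM in brain, 523, 274 and 92.4 in untreated tumor, 48.0, 321 and 469 at 50 µg, 170, 233 and 96.8 at 100 µg, with 99.6, 237 and 200.2 at 200 µg. The tumor groups spread widely and overlapped, and untreated tumor exceeded brain by 7.80 ± 0.60 on the log2 scale (limma, adjusted p = 1.0e-04). U541 averaged under the filter in brain and passed it through tumor alone, so its p-values do not support a difference. Of its 71 spliced transcripts 32 were shorter than 300 bases, and Cufflinks can give very short transcripts a very high FPKM. Without transcripts under 300 bases the untreated tumors stood at 11.54, 7.13 and 11.48 FPKM, with a log2 difference of 3.35 (limma, adjusted p = 5.7e-05). The Y-linked genes Ddx3y, Kdm5d, Uty and Eif2s3y were listed at 0 in all 15 libraries, while Xist, the RNA of the inactive X chromosome, ranged from 28.0 to 44.5 FPKM in brain and from 0.871 to 2.95 FPKM in tumor. The source of reads placed on chromosome Y was not tested.

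U355 (chr12:108078238-108085446) lay 20985 bases from Setd3, a histidine methyltransferase gene, and over no RefSeq gene. It was at 1.17, 1.03 and 0.867 FPKM in brain and 194, 211 and 197 in untreated tumor, with 141 to 232 FPKM in the 9 dosed tumors. Untreated tumor exceeded brain by 6.64 ± 0.14 on the log2 scale (limma, adjusted p = 1.1e-05). Its neighbor Setd3 moved the other way, from 26.3 ± 2.23 FPKM in brain to 10.9 ± 1.41 in untreated tumor (SD, n = 3 each; log2 difference −1.20 ± 0.16 (SE), limma adjusted p = 9.9e-04). The single intron of U355, of 3020 bases, was listed with the same ends in 14 libraries, all 12 tumors among them.

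U319 (chr11:61391129-61397906) has the start of the RefSeq lncRNA gene Gm42081 at its edge, where the printed window held none of the motifs. Brain stood at 0.453, 0 and 0.355 FPKM and untreated tumor at 191, 122 and 128, and the 9 dosed tumors ranged from 152 to 260 FPKM. The log2 difference was 6.86 ± 0.25 (limma, adjusted p = 1.2e-05), and the dose groups overlapped untreated tumor. U319 averaged under the filter in brain and passed it through tumor alone, so this p-value does not support a difference. Its single intron of 4912 bases recurred in 14 libraries. U249 (chr8:126412045-126417304), over the RefSeq lncRNA gene Gm51604, stood at 1.71, 1.31 and 0.463 FPKM in brain, 117, 139 and 90.2 in untreated tumor and 70.5 to 296 in dosed tumor, with a log2 difference of 5.78 ± 0.29 (limma, adjusted p = 2.4e-05). U249 was seen as a spliced transcript in no untreated library and in all 6 at 100 and 200 µg, and in the untreated and 50 µg libraries its value came from unspliced transcripts. It lay 5211 bases from Coa6, a gene for assembly of cytochrome c oxidase, which did not pass in the same comparison (log2 difference −0.97 ± 0.44, limma adjusted p = 0.1003).

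U063 (chr2:170670866-170673906) overlapped the RefSeq lncRNA gene Gm40003, whose start lies at its edge and whose window is the one with 5 CCAAT boxes. It was listed at 0 in all 3 brain libraries and at 57.7, 68.3 and 48.4 FPKM in untreated tumor, 52.4, 60.6 and 80.7 at 50 µg, 40.5, 54.3 and 44.5 at 100 µg, with 39.6, 45.9 and 57.4 at 200 µg. Tumor and brain did not overlap (limma, adjusted p = 1.1e-05), and the tumor groups overlapped. U063 passed the filter through tumor alone. It has 3 exons over 837 bases, and its introns of 2204 and 131 bases were listed with the same ends in all 12 tumor libraries.

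The loci lower in untreated tumor were low in level, and the 6 with the greatest decrease were listed at 0 in all 3 untreated tumors, so they passed the filter through brain alone. U350 (chr12:85524673-85525470) stood at 9.43, 7.45 and 2.17 FPKM in brain and was listed at 0 in 11 tumor libraries, with 2.57 FPKM in replicate 1 at 100 µg (limma, adjusted p = 0.0024). U049 (chr2:63186136-63196529), over the RefSeq lncRNA gene Gm34110, stood at 12.3, 4.35 and 1.28 FPKM in brain and was listed at 0 in all 12 tumors (limma, adjusted p = 0.0134). Its neighbor Kcnh7, a potassium channel gene 1849 bases away, fell with it from 9.84 ± 3.01 to 0.433 ± 0.144 FPKM (SD, n = 3 each; log2 difference −2.88 ± 0.24, limma adjusted p = 1.4e-04). Brain replicate 3, the deepest library, was the lowest of the brain libraries at both loci.

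U470 (chr17:66250251-66267001), with 4 exons and over no RefSeq gene, stood at 3.51, 3.69 and 3.37 FPKM in brain and was listed at 0 in all 12 tumors (limma, adjusted p = 4.1e-05). Its intron of 6603 bases was listed in all 3 brain libraries. U180 (chr6:71534547-71537879) stood at 3.00, 2.00 and 3.80 FPKM, U215 (chr7:60785667-60870183) at 1.32, 3.25 and 2.75 FPKM and U037 (chr1:191648325-191649120) at 3.59, 2.48 and 1.27 FPKM in brain. All 3 were listed at 0 in every tumor, with adjusted p of 3.4e-04, 0.00135 and 0.00192 (limma). The 2 introns of U180 and the 2 introns of U049 were each listed in 1 library. Ints7, a subunit gene of the Integrator complex 24637 bases from U037, moved the other way, from 4.93 ± 1.11 to 8.47 ± 1.15 FPKM (SD, n = 3 each; limma, adjusted p = 0.0225). Neuron markers fell along the same groups, as given above, and astrocyte markers summed to 126 to 173 FPKM in brain and 1.07 to 4.68 FPKM in untreated tumor. Their part in the fall of these loci was not tested.

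**Figure D4:**
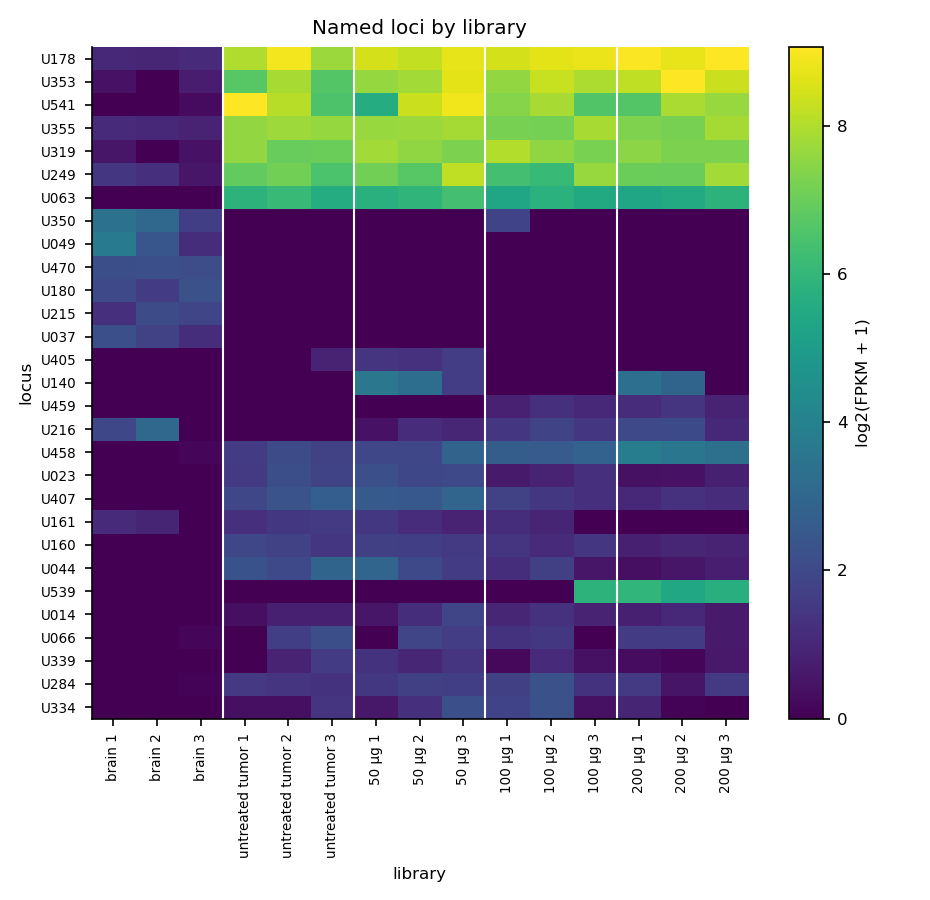
Level of each of the named loci chosen by rank or test (rows) in each of the 15 libraries (columns), as log2(FPKM + 1). The 7 rows at the top are near 0 in brain and high in all 12 tumors, the next 6 are present in brain and at 0 in nearly all tumors, and the rest are loci of the dose comparisons and the loci with most or longest exons.

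Loci and their neighboring genes were weakly related. For 104 loci tested against brain whose nearest gene was tested too, the log2 differences of locus and gene had a Pearson r of 0.17 and a Spearman rho of 0.09, across pairs that share libraries. Within 5000 bases r was 0.30 over 62 pairs, and beyond it 0.12 over 42 pairs. Of 53 called loci with a tested neighbor, 35 neighbors were called too, where 59.2% of all 18127 features were called. Of these 35, 20 moved in the same and 15 in the opposite direction.

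Dose comparisons were made in 1 fit of the 12 tumor libraries, in which 332 of the 543 loci passed the filter and 211 did not. At 50 µg no locus was called (28 at an unadjusted p under 0.05), against 0.00615% of all 16259 features tested. At 100 µg none was called (46 unadjusted), against 0.0861% of all features (0.0738% higher and 0.0123% lower). For the mean of the doses none was called (48 unadjusted), against 0.0738% (0.0615% higher and 0.0123% lower). The limma fit with trend and robust options also called 0 loci in each of these 3 comparisons. Leaving out 1 library gave 1 call at 50 µg (untreated replicate 3), 1 at 100 µg (untreated replicate 3 or replicate 3 at 200 µg) and 1 for the mean of the doses (replicate 3 of any of the 4 tumor groups). Values at 50 µg lay wholly above untreated tumor at 36 loci and wholly below at 4, while 3.76 and 5.73% of all features did so. Those 36 are 10.8% of the 332 loci tested. At 100 µg, 30 loci lay wholly above and 34 wholly below, against 7.64 and 6.89% of all features. Replicate 3 at 50 µg had the highest summed FPKM of the loci, 3885, and the most genes in pieces, 34.8%. Its part in the count was not tested.

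The 2 loci with the smallest p at 50 µg were U405 and U140, neither of which passed. U405 (chr15:16210961-16213796) stood at 1.62, 1.45 and 2.14 FPKM at 50 µg, with 0.836 FPKM in untreated replicate 3, and was listed at 0 in all other libraries (log2 difference 1.15 ± 0.23, limma adjusted p = 0.477). U140 (chr5:7492872-7494453) stood at 10.95, 8.80 and 2.10 FPKM at 50 µg, reached 9.01 and 6.55 FPKM in replicates 1 and 2 at 200 µg, and was listed at 0 elsewhere (limma, adjusted p = 0.876).

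At 200 µg, 5 loci were higher and 10 lower than in untreated tumor (limma, adjusted p under 0.05), or 15 of the 332 tested. Among all 16259 features, 2.76% were called, 1.96% as higher and 0.793% as lower. Values at 200 µg lay wholly above untreated tumor at 35 loci and wholly below at 45, against 21.1 and 16.5% of all features. These calls rest on few libraries. No locus was called without replicate 1 or without replicate 2 at 200 µg (0 calls each), and 1 locus was called without untreated replicate 2 or without untreated replicate 3. The count was 6 without untreated replicate 1, 7 without replicate 2 at 50 µg or replicate 1 at 100 µg, 9 without replicate 2 at 100 µg or replicate 3 at 200 µg, and 25 without replicate 3 at 50 µg. With a term for the 4 libraries that list few genes in pieces no locus was called, and that term rests on replicate 3 at 100 µg alone, since all libraries at 200 µg and no untreated library are of that kind. Replicate 3 at 100 µg lay nearer the 200 µg mean than the mean of the other libraries at 100 µg for 8 of the 15 loci. The 4 microglia markers summed to 61.8 to 164 FPKM in untreated tumor, 72.0 to 148 at 50 µg, 10.4 to 25.6 at 100 µg and 9.37 to 11.2 at 200 µg. The sum followed Tmem119, at a mean of 99.8, 108, 10.2 and 5.23 FPKM in that order. Cx3cr1 stood at 5.62, 4.22, 3.59 and 3.22 FPKM and P2ry12 at 1.66, 1.98, 1.73 and 1.58 FPKM, while Siglech was at 0 in untreated tumor, at 100 and at 200 µg. The part of these markers in the calls was not tested.

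Among the loci higher at 200 µg, U459 (chr17:22878135-22884336) had the smallest p. It has 3 exons, lies over no RefSeq gene, and was listed at 0 in brain, in untreated tumor and at 50 µg, in all 9 libraries. It stood at 0.780, 1.31 and 0.989 FPKM at 100 µg, with 1.21, 1.57 and 0.820 FPKM at 200 µg. U459 passed the filter only through the 6 libraries at the 2 higher doses, so a difference from untreated tumor was fixed by the filter. The 2 higher doses overlapped each other and lay apart from all other libraries, and U459 was called at 200 µg (limma, adjusted p = 0.0148) and not at 100 µg (adjusted p = 0.0729). Its introns of 826 and 4331 bases were each listed in all 6 of these libraries. With the term for few genes in pieces its adjusted p at 200 µg was 0.203.

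U458 (chr17:21473989-21478679), over the RefSeq lncRNA gene Gm52290, rose from 1.98, 3.20 and 2.43 FPKM in untreated tumor to 13.4, 10.7 and 9.14 FPKM at 200 µg. At 50 µg it stood at 2.77, 2.81 and 6.44 FPKM, with replicates 1 and 2 inside the untreated range. At 100 µg it stood between untreated tumor and 200 µg, at 5.39, 5.01 and 6.17 FPKM, while brain showed 0, 0 and 0.120 FPKM. Values at 200 µg lay above all other libraries, with a log2 difference from untreated tumor of 1.77 ± 0.27 (limma, adjusted p = 0.0174). The linear trend over the 12 tumors was 0.89 ± 0.12 per 100 µg on the log2 scale (limma, adjusted p = 0.0066). With the term for few genes in pieces the adjusted p was 0.303 at 200 µg and 0.246 for the trend.

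U216 (chr7:61010254-61088888) overlapped the lncRNA gene A230006K03Rik as RefSeq places it, while GENCODE M21 places that gene 39108 bases away. It was listed at 0 in all 3 untreated tumors, at 0.370, 1.21 and 0.947 FPKM at 50 µg, 1.69, 2.63 and 1.72 at 100 µg, with 3.02, 3.10 and 0.990 at 200 µg. Brain stood at 2.92, 7.43 and 0 FPKM. The untreated group lay below all dosed libraries, and U216, which passed the filter through dosed tumors alone, was called at 200 µg (limma, adjusted p = 0.0216) and not at 100 µg (adjusted p = 0.107) or for the mean of the doses (adjusted p = 0.110). U053 (chr2:75638104-75642891) also lay above untreated tumor in all 9 dosed libraries, at 8.18 to 31.8 FPKM against 5.74 to 7.49 FPKM, with a log2 difference of 1.93 ± 0.42 at 200 µg (limma, adjusted p = 0.0406). In all, 5 loci lay wholly above untreated tumor in the 9 dosed libraries, these 2 with U175, U208 and U453, and none lay wholly below, against 0.763 and 0.953% of all features. U053, U175, U208 and U453 were named after their values were seen.

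U539 was the remaining locus called higher at 200 µg, at chrY:4797759-4804200. It was listed at 0 in 11 libraries and at 56.8 FPKM in replicate 3 at 100 µg and 61.4, 41.5 and 50.0 FPKM at 200 µg. These are exactly the 4 libraries that list few genes in pieces, and the 2 other libraries at 100 µg are at 0. U539 passed the filter through these 4 libraries alone and was called at 200 µg (limma, adjusted p = 0.0398) and in the trend (adjusted p = 0.0135). With a term for those 4 libraries the trend turned to −0.07 per 100 µg on the log2 scale (limma, adjusted p = 0.872). The agent tag names 200 µg for replicate 3 at 100 µg. Grouped by that tag, the trend was 3.14 per 100 µg on the log2 scale (limma, adjusted p = 0.0116). Dose and this split of the libraries cannot be told apart for U539, and the Y-linked genes named above were at 0 in the same 4 libraries.

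**Figure D5:**
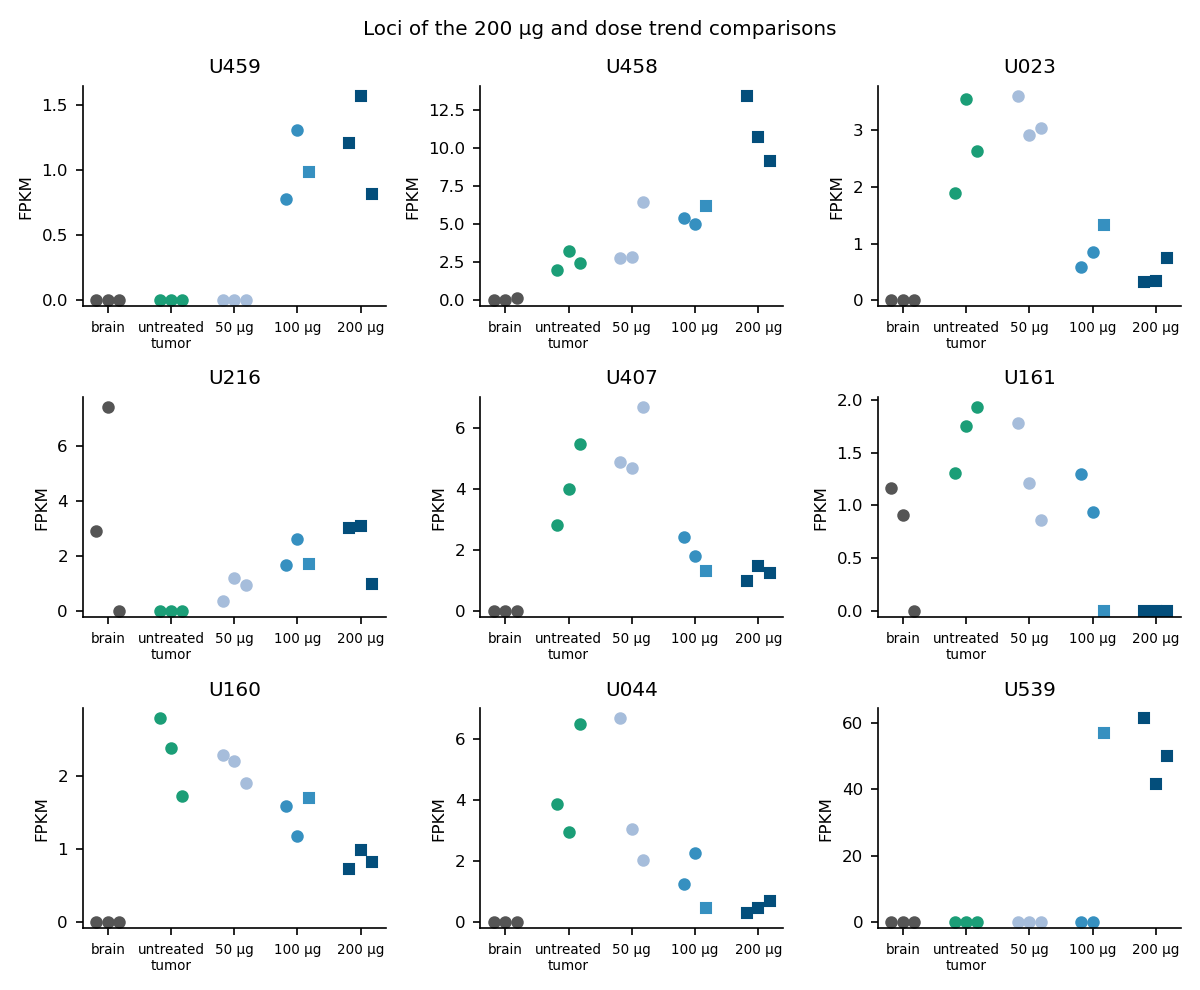
Level in FPKM of 9 loci of the 200 µg and trend comparisons in each library by group. Squares mark the 4 libraries with few genes listed in pieces (replicate 3 at 100 µg and the 3 at 200 µg), the only ones above 0 for U539. For U458 and U023, replicates 1 and 2 at 100 µg also lay outside the untreated range. For U458, replicate 3 at 50 µg lay above all 3 libraries at 100 µg.

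Loci lower at 200 µg were low in level throughout. U023 (chr1:141140434-141145738) stood at 1.89, 3.54 and 2.63 FPKM in untreated tumor, 3.602, 2.92 and 3.04 at 50 µg, 0.586, 0.855 and 1.33 at 100 µg, with 0.329, 0.347 and 0.751 at 200 µg. Both higher doses lay below both lower groups, by 1.31 ± 0.22 on the log2 scale for 200 µg against untreated tumor (limma, adjusted p = 0.0202). U023 averaged under the filter at 200 µg and passed it through the other tumor groups, so this p-value does not support a difference. U023 was seen as a spliced transcript in 2 libraries alone and listed at 0 in brain. U407 (chr15:23738164-23742687), a locus of 2 exons with an intron of 1843 bases shared by all 12 tumor libraries, stood at 2.83, 4.01 and 5.46 FPKM in untreated tumor, 4.88, 4.68 and 6.68 at 50 µg, 2.43, 1.80 and 1.31 at 100 µg, with 0.989, 1.46 and 1.24 at 200 µg. It fell by 1.17 ± 0.23 on the log2 scale at 200 µg (limma, adjusted p = 0.0335).

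U161 (chr5:109866720-109886109) overlapped AB010352, a gene that RefSeq lists as protein-coding, and starts at its window printed above. It stood at 1.31, 1.75 and 1.93 FPKM in untreated tumor, 1.78, 1.21 and 0.866 at 50 µg, 1.29 and 0.938 in replicates 1 and 2 at 100 µg, and was listed at 0 in replicate 3 at 100 µg and in all 3 libraries at 200 µg. Brain stood at 1.16, 0.908 and 0 FPKM. U161 passed the filter only through tumor libraries at the lower doses or untreated, so a difference at 200 µg was fixed by the filter. It passed at 200 µg (limma, adjusted p = 0.0354) and in the trend (adjusted p = 0.0107), again with the 4 libraries of few genes in pieces apart from the rest. With the term for them the adjusted p was 0.762 and 0.599. Grouped by the agent tag, which names 200 µg for replicate 3 at 100 µg, the adjusted p was 0.0157 and 0.0103 (limma). Dose and this split of the libraries cannot be told apart for U161 either. The nearest gene, Gm26779 at 122 bases, did not pass at 200 µg (limma, adjusted p = 0.960).

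U160 (chr5:105499142-105511154), over the RefSeq lncRNA genes Gm42142 and Gm42144, stood at 2.79, 2.39 and 1.72 FPKM in untreated tumor, 2.29, 2.21 and 1.91 at 50 µg, 1.59, 1.17 and 1.70 at 100 µg, with 0.723, 0.986 and 0.826 at 200 µg. The group at 200 µg lay below all other tumors, with a log2 difference of −0.83 ± 0.17 (limma, adjusted p = 0.0355) and a trend of −0.44 ± 0.08 per 100 µg (adjusted p = 0.011). Its neighbor Gm42141, 1501 bases away, stood at 3.55 ± 0.655 FPKM in untreated tumor and 1.34 ± 0.304 at 200 µg (SD, n = 3 each) and did not pass (limma, adjusted p = 0.0766). U044 (chr2:30704244-30707015) stood at 3.86, 2.95 and 6.49 FPKM in untreated tumor, 6.68, 3.04 and 2.03 at 50 µg, 1.26, 2.27 and 0.479 at 100 µg, with 0.289, 0.451 and 0.691 at 200 µg, with a log2 difference of −1.84 ± 0.39 at 200 µg (limma, adjusted p = 0.0385). U044 averaged under the filter at 200 µg and passed it through the other tumor groups, so this p-value does not support a difference. Its 2 introns were each listed in 1 library. The other 5 loci called lower were U370, U310, U402, U523 and U361, with log2 differences from −1.59 to −0.76, named after their values were seen.

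A linear trend with dose was called at 22 of the 332 loci, 9 rising and 13 falling (limma, adjusted p under 0.05). Among all features 6.97% were called, 4.72% as rising and 2.25% as falling, so the total share of loci, 6.63%, lay near that of all features. The trend had a count of 1 without replicate 1 at 200 µg, 3 without replicate 2 at 200 µg, 8 without untreated replicate 3, 12 without untreated replicate 2 and 14 without replicate 1 at 50 µg. With the term for few genes in pieces no locus was called. Only 3 of the 15 loci called at 200 µg had a tested neighbor, and no such neighbor was called.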

How the data were processed

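Healthy brain and GL261 tumor were measured by RNA-seq in 15 libraries, 3 per group. Reads were aligned with STAR to mm10 and transcripts assembled and quantified with Cufflinks, per the submitters' processing notes. Versions, parameters and the assembler's annotation are not given in the sources used here. Per library, the authors deposited 1 transcript list with exon coordinates, coverage and FPKM of each transcript (other numbers in an attribute text, per the file headers and values). Library totals are not used here, so relative depth is the median coverage per FPKM over transcripts of 3000 bases or more.

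Transcripts were tested for overlap with GENCODE M21 genes (exons or body, either strand, 1 base) and merged into loci by span. The value of a locus is the sum, over its gene-free transcripts, of FPKM times the share of the exonic length that the transcript covers, without single-exon transcripts under 200 bases. Genes were given values in the same way. FPKM scales to the total of its own library, and each library was assembled alone, so an exact 0 can be a failed assembly.

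Tests used limma 3.58.1 in R 4.3.3 on log2(FPKM + 1), on features whose mean in the fitted libraries reached 0.5 FPKM, with Benjamini-Hochberg adjustment over all features. On this scale the change of low features is understated. Differences are given with their SE, and the trend per 100 µg. The test was run on simulated data first. Library counts used exact permutation tests (Python 3.11.15). No p is given for group differences in the number seen or summed FPKM of the 543 loci, whose choice favors tumor and in part dosed tumor. The labels say only that samples are individual, so a p-value reflects spread among these 3 per group, which may be technical. Named loci are the 6 with the highest mean FPKM, the 6 largest differences in each direction between untreated tumor and brain among called loci whose groups do not overlap, up to 6 called loci by p for each dose comparison and the trend (or the 2 with the smallest p where none passed), the 3 with most exons (ties by exonic length) and the 2 longest, with their nearest genes. For 100 µg and the mean of the doses these were U459 and U216. The members and lists were chosen with earlier results of these data known. Sequences and exon features that need a genome sequence are not analysed here.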

Additional observations from a re-analysis of the deposited data

How the results depend on the processing

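Depth differed between libraries (coverage per FPKM of 6.10 to 22.1), and a locus at low FPKM may be missed in a shallow library, so absence is not shown by a 0. The number of loci was 1199 with 1 library needed, 325 at 5 kb or more from genes and 335 with transcripts of at least 1 FPKM. Merging by exon overlap, needing 3 libraries or barring only exons of genes kept it within 1.5 times. All tumors against brain in loci seen gave 90.8 with 1 library needed (adjusted p = 0.2, exact permutation) and 150 to 173 without 1 library at a time. The summed FPKM difference of all tumors against brain was 7119 when merged by exons and 8785 as a plain sum of spliced transcripts, and 2213 to 2396 without 1 library at a time.

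Summed FPKM of dosed minus untreated tumor, given with no test, changed sign in some settings. Merged by exons, it was −671 at 50 µg, −3920 at 100 µg, −2425 at 200 µg and −2339 for all doses. As a plain sum of spliced transcripts, it was −1723, −6274, −4070 and −4022. Without the 4 libraries whose agent tag disagrees, it was −201 at 100 µg and −5.43 for all doses. Without 1 library at a time, it ran from −123 to 187 at 100 µg. The cause was not tested.

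Loci called in untreated tumor against brain numbered 88 as a plain sum, 110 to 201 in the other settings and 141 to 169 without 1 library at a time. At 50 µg, 0 became 2 without the 4 libraries and 1 when grouped by tag, and 0 to 1 without 1 library at a time. At 100 µg, 0 became 3 with a pseudocount of 0.1, 1 with no filter, 2 as a plain sum, 2 without the 4 libraries and 1 by tag, and 0 to 1 without 1 library at a time. For the mean of doses, 0 became 2, 1, 3 and 2 with a pseudocount of 0.1, as a plain sum, without the 4 libraries and by tag, and 0 to 1 without 1 library at a time. At 200 µg, 15 became 7 as a plain sum, 0 with the term for few genes in pieces, 8 by tag, and 0 to 25 without 1 library at a time. The trend count of 22 became 10 as a plain sum, 0 with that term, and 1 to 28 without 1 library at a time. U539 turned to −0.0653 in the trend with that term.

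Replicate numbers did not pair the tumor samples, since 1 of 18 same-numbered pairs had a correlation of deviations over 0.1 (range −0.09 to 0.12). With the replicate block, 4 loci were called at 200 µg and 16 in the trend. Of 13 named loci against brain, tested in 218 alternatives, U049 alone lost its call, as a plain sum. The settings that bar only exons, count loci per spliced transcript, need 1 library for the loci seen, or leave out transcripts under 300 bases or the highest locus were chosen after seeing the data.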

Other observations

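The 656 loci seen once were spread unevenly over the libraries. Brain replicate 3 held 221 of them, brain replicate 1 held 52, replicate 2 at 200 µg held 50, and the fewest, 14, were in replicate 3 at 200 µg. Chromosome Y held 6 of the 543 loci, none over a RefSeq gene and 1 of them seen in a brain library. U542 (chrY:90737300-90740744), next to U541, was the highest locus in brain replicates 2 and 3, at 11.2 and 10.2 FPKM, with 8.05 FPKM in brain replicate 1 and 0 to 35.0 FPKM over the tumor libraries. It did not pass between untreated tumor and brain (limma, adjusted p = 0.218).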
